A study of Mus musculus with 4 samples.

Results

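The genes described are 8 transcription factors known from the nephron or from its repair: Sox9, Sox4, Pax2, Pax8, Lhx1, Hnf4a, Foxm1 and Klf6. They were taken by gene name from the array, which carries 16 probes for them among 41142 probes, and they are 8 of 21216 genes. Kidney RNA was hybridised to 4 one-colour Agilent expression arrays, 1 per group. The groups were NLRC5-/- mice after ischemia and reperfusion (knockout injured), C57BL/6 wild type mice after the same injury (wild type injured), sham-operated NLRC5-/- mice (knockout sham) and sham-operated C57BL/6 wild type mice (wild type sham). All mice were 8 weeks old. The injury was 30 min of ischemia of both kidneys, and reperfusion lasted 48 h per the sample titles and the series design but 24 h per the sample descriptions. Nlrc5 encodes a NOD-like receptor family protein that activates MHC class I genes, and the deleted part of the gene is not given in the sources used here. With 1 array per group no difference between arrays has a replicate check, and precision is limited by having only 4 arrays.

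Both knockout arrays were on one slide and both wild type arrays on the other, so that slide and genotype cannot be told apart, while each injured kidney was on the same slide as the sham kidney of its genotype. The knockout sham array alone had a female pattern, with Xist well above background and 4 Y-linked genes not, so comparisons with it also compare sexes. Wild type injured was the dimmest array, with a 75th percentile of signal of 181.7, against 362.2 in knockout injured, 465.4 in knockout sham and 456.2 in wild type sham. Between 67.5% and 74.9% of spots were well above background. The 1 Nlrc5 probe read above background on all 4 arrays, at -3.62 in knockout injured, -3.34 in wild type injured, -3.77 in knockout sham and -4.08 in wild type sham, so the genotypes are named as the arrays are labelled. All 10 proximal tubule markers were above background on every array. In whole kidney RNA, fewer cells of a type and less RNA per cell cannot be told apart.

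Levels below are log2 of the processed signal minus log2 of the 75th percentile of the array, and differences are differences of these levels, so that 1 is 2-fold. A gene with several probes is given by its brightest probe, with the others beside it. Among 170 probes printed at 5 or more spots, the spots of a probe gave a median SD of 0.10 for a difference between the injured arrays, 0.14 for wild type injured minus sham, 0.07 for knockout injured minus sham and 0.12 between the sham arrays. This spread is technical and leaves out differences between animals.

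The 8 factors stand at different points of tubule life. Pax2, Pax8 and Lhx1 act together in the embryonic nephric lineage, from which the tubules form, and Hnf4a drives maturation of the proximal tubule, the segment most exposed to ischemia. After injury, surviving tubule cells are known to switch on Sox9 and Sox4, to express the early-response factor Klf6, and to re-enter the cell cycle, in which Foxm1 drives the genes of mitosis.

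At 2-fold, 5 of the 8 genes differed between the injured kidneys, where 16.5% of genes did: Lhx1 and Foxm1 were higher in knockout (8.67% of the 16790 genes above background on either array were at least 2-fold higher), and Sox9, Sox4 and Klf6 were lower (7.8% of those genes were). The median difference of the members was -0.75, against 0.01 over all genes. In wild type, 6 of 8 were at least 2-fold higher in the injured kidney than in the sham kidney, against 14.4% of 16719 genes, and 1 was lower, against 12.7%, so 7 of 8 differed where 27.1% of genes did. In knockout, 2 of 8 were higher in the injured kidney than in sham, against 4.43% of 17087 genes, and 0 were lower, against 3.19% (7.62% in either direction). Between the sham kidneys 0 of 8 differed by 2-fold, against 7.18% of 17036 genes (3.93% higher and 3.25% lower in knockout). The median differences of the members were 1.40 for injury in wild type, 0.38 for injury in knockout and 0.07 between the sham kidneys, and those of all genes were 0.00, 0.02 and 0.04. These comparisons share arrays: wild type injured enters both the first and the second. The 8 genes were also chosen with earlier results of these data known. Their counts beside the shares of all genes are therefore descriptions and not a test.

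**Figure D1:**
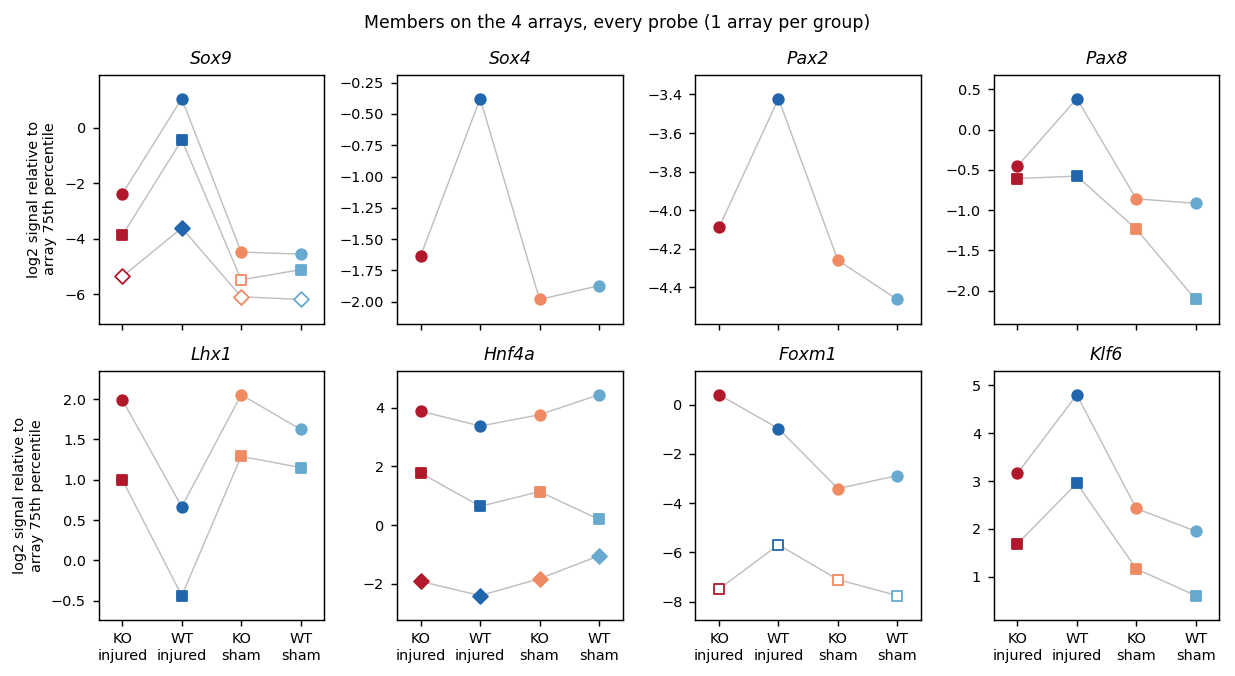
Log2 signal relative to the 75th percentile of the array (vertical axes, a separate scale for each gene) for every probe of the 8 genes in knockout injured, wild type injured, knockout sham and wild type sham. Each symbol shape is 1 probe, joined by a grey line, and an open symbol is not well above background. Sox9, Sox4, Pax2 and Klf6 peak on the wild type injured array and both Lhx1 probes are lowest there.

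The injury-induced factors come first. Sox9, which marks regenerating proximal tubule cells, had 3 probes, all to NM_011448 on chromosome 11 of the mm9 build. The first 30 bases of its 2 brighter probes are shown because they lie apart in the transcript and gave nearly the same difference between the injured kidneys.
A_52_P577484: ttccaggagagagactttaagactttgtct
A_52_P214630: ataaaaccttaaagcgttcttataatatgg
The first lies at chr11:112647008-112647067 and the second at chr11:112648809-112648868, both on the plus strand. The brightest probe (A_52_P577484) read -2.38 in knockout injured, 1.05 in wild type injured, -4.48 in knockout sham and -4.56 in wild type sham. Sox9 was thus high in wild type injured, intermediate in knockout injured and alike in both sham kidneys. It was 10.8-fold lower in knockout injured than in wild type injured, a difference of -3.43. It was higher in injured than in sham kidneys by 2.11 in knockout (4.31-fold) and by 5.61 in wild type (48.8-fold). The size depended on the background correction: with normexp the same 3 differences were -1.82, 1.86 and 3.67, and with an offset of 50 added to all signals, chosen after seeing the data, they were -2.66, 1.08 and 3.75.

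The second Sox9 probe (A_52_P214630), printed at 10 spots, read -3.87 in knockout injured, -0.44 in wild type injured, -5.48 in knockout sham and -5.12 in wild type sham. Its SD over spots was 0.11 in knockout injured, 0.09 in wild type injured, 0.38 in knockout sham and 0.54 in wild type sham. The spots of the 2 injured arrays did not overlap, and the difference between them was -3.44. In knockout sham 3 of its 10 spots were well above background, so the difference of 1.61 between knockout injured and knockout sham is a bound, at least 3.05-fold. The third probe (A_51_P451606, chr11:112644310-112645162, a span that is longer than the 60 bases of the probe) was above background in wild type injured only. There the difference from knockout injured was at least 1.70 in size, with knockout injured lower. Its level was higher in wild type injured than in wild type sham by at least 1.90.

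**Figure D2:**
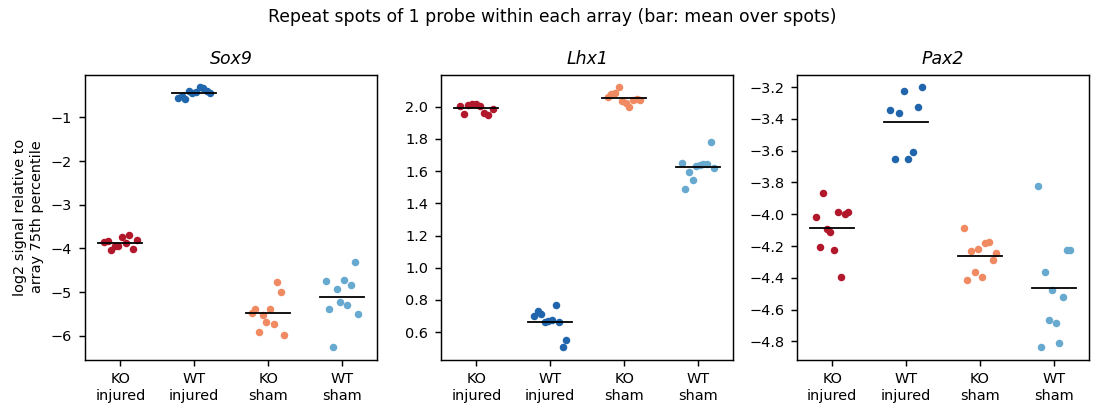
Log2 signal relative to the 75th percentile of the array for each repeat spot of 1 probe of Sox9 (A_52_P214630), Lhx1 (A_51_P452119) and Pax2 (A_51_P375526) in knockout injured, wild type injured, knockout sham and wild type sham, with a bar at the mean over spots. Sox9 spots average -3.87 in knockout injured and -0.44 in wild type injured, without overlap, and the spread over spots is technical.

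Klf6, a zinc finger factor of the early injury response that is known to repress branched-chain amino acid breakdown in mouse proximal tubule, followed the same order with a smaller range. Its brightest probe (A_51_P451346, chr13:5869371-5869430, plus strand) read 3.16 in knockout injured, 4.80 in wild type injured, 2.43 in knockout sham and 1.95 in wild type sham. Its second probe (A_51_P503162, chr13:5866706-5866765) read 1.69, 2.95, 1.17 and 0.61 on the same arrays in the same order. By both probes Klf6 was highest in wild type injured. The difference between the injured kidneys was -1.64 by the first probe, 3.12-fold lower in knockout, and -1.26 by the second. Klf6 was higher in injured than in sham kidneys by 0.73 in knockout and 2.85 in wild type by the first probe, and by 0.52 and 2.34 by the second. The response in knockout minus that in wild type was -2.12 and -1.82.

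The promoter of Klf6 is shown for its CCAAT boxes, a motif bound by NF-Y, and for an E-box. It is the 250 bases before the RefSeq gene start (GRCm38.p6, chr13:5861239-5861488, plus strand), with CCAAT or its complement ATTGG and the E-box CACGTG in capitals.
Klf6 promoter: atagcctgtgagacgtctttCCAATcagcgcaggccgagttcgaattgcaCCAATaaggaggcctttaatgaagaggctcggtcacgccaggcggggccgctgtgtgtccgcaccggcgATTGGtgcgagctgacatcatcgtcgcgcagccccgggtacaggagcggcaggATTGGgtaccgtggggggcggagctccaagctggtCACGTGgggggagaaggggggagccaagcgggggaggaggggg
It holds 4 CCAAT boxes, 230 and 200 bases before the start on the plus strand and 131 and 78 bases before it on the minus strand, and CACGTG 43 bases before it, without overlap. RefSeq promoters were matched for 6 of the 8 genes, 9 promoters in all, and 6 of these 9 held CCAAT on either strand, against 33.9% of 32841 mouse promoters. CACGTG was in 1 of the 9, against 6.02% of all promoters. A match is a description of the letters only.

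Sox4, which is known from developing and injured epithelium, had 1 probe (A_51_P105178, chr13:29044066-29044125, minus strand). It read -1.63 in knockout injured, -0.38 in wild type injured, -1.98 in knockout sham and -1.87 in wild type sham. It stood apart in wild type injured, with the other 3 arrays within 0.35 of each other. Sox4 was 2.39-fold lower in knockout injured than in wild type injured, a difference of -1.26. Injury differences were 0.35 in knockout and 1.50 in wild type. Before scaling, the processed signal of the probe was 117 in knockout injured, 139.9 in wild type injured, 118 in knockout sham and 125 in wild type sham. The scaled difference between the injured kidneys is wider than the unscaled one by the lower 75th percentile of wild type injured. That scaling is the same for every gene of the array and is not particular to Sox4. With normexp background correction the difference between the injured kidneys was -0.30 at its smallest, under 2-fold. The gene nearest to Sox4 in pattern was Rn18s, the 18S ribosomal RNA, whose level was 10.39 in knockout injured, 11.53 in wild type injured, 9.98 in knockout sham and 10.10 in wild type sham.

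Among the nephron lineage factors, Pax8, which is expressed along the adult tubule, had 2 probes on chromosome 2. The brighter (A_51_P381297, chr2:24276785-24276844, minus strand) read -0.45 in knockout injured, 0.39 in wild type injured, -0.86 in knockout sham and -0.92 in wild type sham. The other (A_52_P606742, chr2:24328201-24328260) read -0.61, -0.58, -1.24 and -2.11 on the same arrays in the same order. Both were higher in injured than in sham kidneys of wild type, by 1.30 and 1.53, and by 0.41 and 0.63 in knockout. Between the injured kidneys the probes differed in size, at -0.84 and -0.03, both under 2-fold. As with Sox4, the unscaled signal of the brighter probe moved little, at 265 in knockout injured, 237 in wild type injured, 256.5 in knockout sham and 242 in wild type sham.

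Pax2, an early regulator of nephric duct and nephron formation, was near background. Its 1 probe (A_51_P375526, chr19:44835375-44835433, plus strand), printed at 10 spots, read -4.09 in knockout injured, -3.42 in wild type injured, -4.26 in knockout sham and -4.46 in wild type sham. Between 8 and 10 of the spots were well above background on each array. Pax2 was 2.06-fold higher in wild type injured than in wild type sham, a difference of 1.04, and the difference was 0.17 in knockout. The wild type difference fell short of 2-fold with median scaling (0.94), quantile normalization (0.84) and the authors' table (0.84). It was -0.67 between the injured kidneys, a sign that turned to 0.66 with normexp. Over the 8937 probes below background on all 4 arrays, the median difference was 0.80 for wild type injured minus wild type sham and -0.60 for knockout injured minus wild type injured, values close to those of Pax2. The part of this shift in the Pax2 values was not tested.

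Lhx1, a LIM homeobox factor of the renal vesicle, was the 1 nephron lineage factor lower in wild type injured than on the other arrays. Its brighter probe (A_51_P452119, chr11:84333091-84333150, minus strand, 10 spots) read 1.99 in knockout injured, 0.66 in wild type injured, 2.05 in knockout sham and 1.62 in wild type sham. The SD over spots was at most 0.08, and the spots of wild type injured did not overlap those of any other array. The second probe (A_52_P652336, chr11:84331888-84331947) read 0.997, -0.44, 1.29 and 1.15 in the same order. Lhx1 was higher in knockout injured than in wild type injured by 1.32 (2.50-fold) and by 1.43. Injury differences were -0.06 and -0.29 in knockout, and -0.96 and -1.59 in wild type, so the brighter probe missed 2-fold in wild type and the other passed it. With the median of each array as the scale the brighter probe passed 2-fold too. With normexp its difference between the injured kidneys was 0.90, short of 2-fold.

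Hnf4a, the nuclear receptor that drives proximal tubule genes, had 3 probes to NM_008261 on the plus strand of chromosome 2 that gave different pictures. Their first 30 bases are shown because they disagree in the sign of the wild type difference.
A_52_P683991: tattacagtacagggaacatggaataaagg
A_51_P198473: ctggactcctctcaagttgaagtcatcgtc
A_52_P69656: ccgacaatgtgtggtagacaaagataagag
They lie at chr2:163398074-163398133, chr2:163396065-163396124 and chr2:163378302-163378361. The brightest (A_52_P683991) read 3.88 in knockout injured, 3.37 in wild type injured, 3.76 in knockout sham and 4.44 in wild type sham. The nearest of the others (A_51_P198473) read -1.92, -2.40, -1.82 and -1.04 in the same order, and A_52_P69656 read 1.77, 0.64, 1.14 and 0.20. The first pair put wild type injured lowest and wild type sham highest, whereas A_52_P69656 put wild type sham lowest. Differences for wild type injured minus wild type sham were -1.06, -1.35 and 0.44, and those for knockout injured minus knockout sham were 0.12, -0.09 and 0.63. Between the injured kidneys all 3 probes were higher in knockout, by 0.50, 0.48 and 1.13. With quantile normalization the brightest probe was no longer 2-fold lower in wild type injured.

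Foxm1, the forkhead factor of the G2 and M phases, gave the widest difference of the 8 genes between injured and sham kidneys of knockout. Its brighter probe (A_52_P28806, chr6:128324783-128324842, plus strand) read 0.40 in knockout injured, -0.98 in wild type injured, -3.41 in knockout sham and -2.89 in wild type sham. Both injured kidneys stood above both sham kidneys, and knockout injured was the highest. Foxm1 was 2.60-fold higher in knockout injured than in wild type injured, a difference of 1.38. It was higher in injured than in sham kidneys by 3.81 in knockout (14.0-fold) and by 1.91 in wild type (3.75-fold). With normexp the knockout difference was 2.56. The other probe (A_52_P361024, chr6:128321295-128321354), designed to another transcript, was not above background on any array, and the mean over both probes turned the difference between the injured kidneys to -0.21.

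Set against wild type sham in place of knockout sham, which has the male pattern of knockout injured but not its genotype or slide, knockout injured was higher by 2.18 for Sox9, 3.28 for Foxm1 and 1.20 for Klf6. The other 5 genes lay between -0.56 and 0.46. This comparison was chosen after the data were seen.

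**Figure D3:**
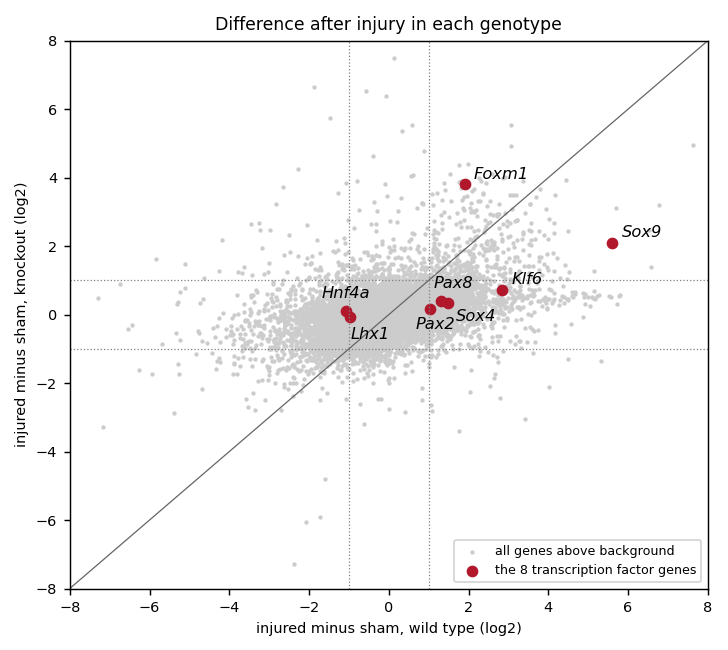
Injured minus sham in knockout (vertical axis, log2) against injured minus sham in wild type (horizontal axis, log2), with genes above background in grey, the 8 transcription factor genes in red, dotted lines at 2-fold and the diagonal of equal differences. Foxm1 lies above the diagonal at 3.81 and 1.91, and Sox9 lies far below it at 2.11 and 5.61.

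The response in knockout minus the response in wild type was at least 2-fold for 5 of the 8 genes, against 19.1% of the 14994 genes above background on all 4 arrays. It was -3.50 for Sox9, -2.12 for Klf6 and -1.14 for Sox4, 3 genes on the lower side where 9.35% of genes lay. It was 1.90 for Foxm1 and 1.18 for Hnf4a, 2 genes on the higher side where 9.79% of genes lay. Lhx1 was at 0.90, Pax8 at -0.89 and Pax2 at -0.87, which turned to 0.64 with normexp. With normexp Hnf4a (0.83) and Sox4 (-0.12) were short of 2-fold and Sox9 was at -1.82. The median of the members was -0.88, against -0.02 over all genes.

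A limma fit with treatment and genotype as additive terms called 0 of 16609 genes for injury at an adjusted p (Benjamini-Hochberg) of 0.05, which is 0% of genes and 0 of the 8. No gene came below an adjusted p of 0.415. The unadjusted p was under 0.05 for 1865 genes (11.2%) and for 2 of the 8. In this limma fit the injury difference over both genotypes was 3.86 ± 0.97 (SE) for Sox9, at an adjusted p of 0.432, and 2.86 ± 0.57 (SE) for Foxm1, at the same adjusted p. Both were higher with injury in 2 of 2 genotypes. Adjusted p-values of the other 6 genes in this limma fit were 0.432 to 0.591. For genotype, limma called 0 genes (0%), none below an adjusted p of 0.767, and the unadjusted p was under 0.05 for 907 genes (5.46%) and for 0 of the 8. Both fits had 1 residual degree of freedom and count a difference between the 2 responses as error. On simulated data in which 200 of 16609 genes were changed, limma recovered 0 of the 200 at a log2 change of 2, for injury and for genotype. The share of genes that truly differ in these data is not known and bears on the adjusted p. The simulation therefore does not give what limma could call here.

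Genes that each factor is known to work with were read from lists, which were also chosen with earlier results of these data known. Of all genes, 8.67% were at least 2-fold higher and 7.8% lower in knockout injured than in wild type injured. In injured against sham kidneys 4.43% were higher and 3.19% lower in knockout, and 14.4% and 12.7% in wild type. Of 20 genes known from injured proximal tubule cells that express Sox9, 1 was at least 2-fold higher and 11 were lower in knockout injured than in wild type injured, with a median of -1.10. In injured against sham kidneys 6 were higher and 1 lower in knockout, and 12 were higher and 1 lower in wild type, with medians of 0.63 and 1.39. Krt20, a keratin of the simple epithelium, was at -5.30 between the injured kidneys, and Lcn2, the iron-binding injury marker NGAL, at -3.02. Both were higher in injured than in sham kidneys, by 4.94 and 2.46 in knockout and by 7.64 and 6.54 in wild type. Ccl2, a monocyte chemokine, was at the other end of the list, 1.73 higher in knockout injured. The genes most like Sox9 in pattern over the 4 arrays, by root mean square distance of centred log2 levels among 13937 genes, included Lcn2 (0.49) and Fosl1 (0.54), which encodes a subunit of AP-1.

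The neutrophil markers were lower in knockout injured than in wild type injured, as Sox9 and Klf6 were, but in knockout they were also lower in injured than in sham kidneys, as Sox9 and Klf6 were not. Of them, 3 of 5 were above background in knockout injured and 4 of 5 in wild type injured, and their summed signal relative to the 75th percentile was 3.03 and 12.1. In knockout sham it was 6.69 and in wild type sham 4.54. Csf3r was not above background in either injured kidney. The part of these cells in the Sox9 and Klf6 values was not tested.

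Of 30 other transcription factors known from injured or repairing epithelium, 1 was at least 2-fold higher and 15 were lower in knockout injured than in wild type injured, with a median of -1.001. With injury 8 were higher and 2 lower in knockout and 21 were higher and 2 lower in wild type, with medians of 0.47 and 1.74. Fosl1 was at -3.76 between the injured kidneys and Egr1, an immediate early zinc finger factor, at -2.05. Snai2, a repressor of epithelial genes, was 1.73 higher in knockout injured. Sox11, a relative of Sox4, was higher with injury by at least 1.42 in knockout and at least 1.87 in wild type. Klf5 and Klf4, relatives of Klf6, were at -1.88 and -1.34 between the injured kidneys, while Klf15, a factor of differentiated kidney cells, was at 1.65.

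Branched-chain amino acid breakdown genes, which Klf6 is known to repress, lay on the other side of 0 from Klf6 in wild type. Of 24 measured, 5 were at least 2-fold higher and 0 lower in knockout injured than in wild type injured, with a median of 0.74. With injury 1 was higher and 5 lower in knockout, and 2 were higher and 16 lower in wild type, with medians of -0.20 and -1.43. Auh, which acts in leucine breakdown, was 1.46 higher in knockout injured than in wild type injured, and Bckdha, a subunit of the branched-chain ketoacid dehydrogenase, 1.34 higher. Bcat1, the cytosolic transaminase of the pathway, was at -0.83 between the injured kidneys and higher with injury by 2.02 in knockout and 2.15 in wild type. The 10 proximal tubule markers lay on the same side as this list, with medians of 1.80 between the injured kidneys and of -0.03 in knockout and -2.21 in wild type with injury, and their part in it was not tested.

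Proximal tubule genes of the kind that Hnf4a activates differed more widely than Hnf4a. Of 29 measured, 16 were at least 2-fold higher and 1 was lower in knockout injured than in wild type injured, with a median of 1.19. With injury 3 were higher and 3 lower in knockout, and 0 were higher and 25 lower in wild type, with medians of -0.17 and -2.66. Slc34a3, a sodium phosphate cotransporter, was 6.97 higher in knockout injured than in wild type injured and was at 0.49 with injury in knockout and -7.29 in wild type. Gatm, which makes the creatine precursor guanidinoacetate, was 4.03 higher in knockout injured, and Slc13a3, a dicarboxylate transporter, was at -1.12. Between the sham kidneys 0 were higher and 7 lower in knockout (3.93% and 3.25% of all genes were), with a median of -0.65. These kidneys also differed in markers of other tissue. The summed signal of fat markers was 13.2 in knockout sham (3 of 6 above background) and 48.3 in wild type sham (5 of 6), that of 5 urothelial markers 1.45 and 4.31, and that of 3 red cell markers 55.9 and 6.54. Their part in comparisons with sham was not tested. The summed signal of the 10 proximal tubule markers relative to the 75th percentile was 506.3 in knockout injured, 188.4 in wild type injured, 461.9 in knockout sham and 574.6 in wild type sham. It moved with this list and with the 2 Hnf4a probes that were lowest in wild type injured, and its part in them was not tested. Most of these markers (Slc34a1, Lrp2, Cubn, Slc5a2, Slc22a6, Slc22a8 and Slc13a3) are also genes of the list. The marker sum is therefore not a separate measure from the list. The HNF4 core AAAGTCCA was in 0 of the 30 promoters matched for 24 list genes, against 1.01% of all promoters, both strands read. With so rare a motif, 0 of 30 does not set the list apart from all promoters.

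**Figure D4:**
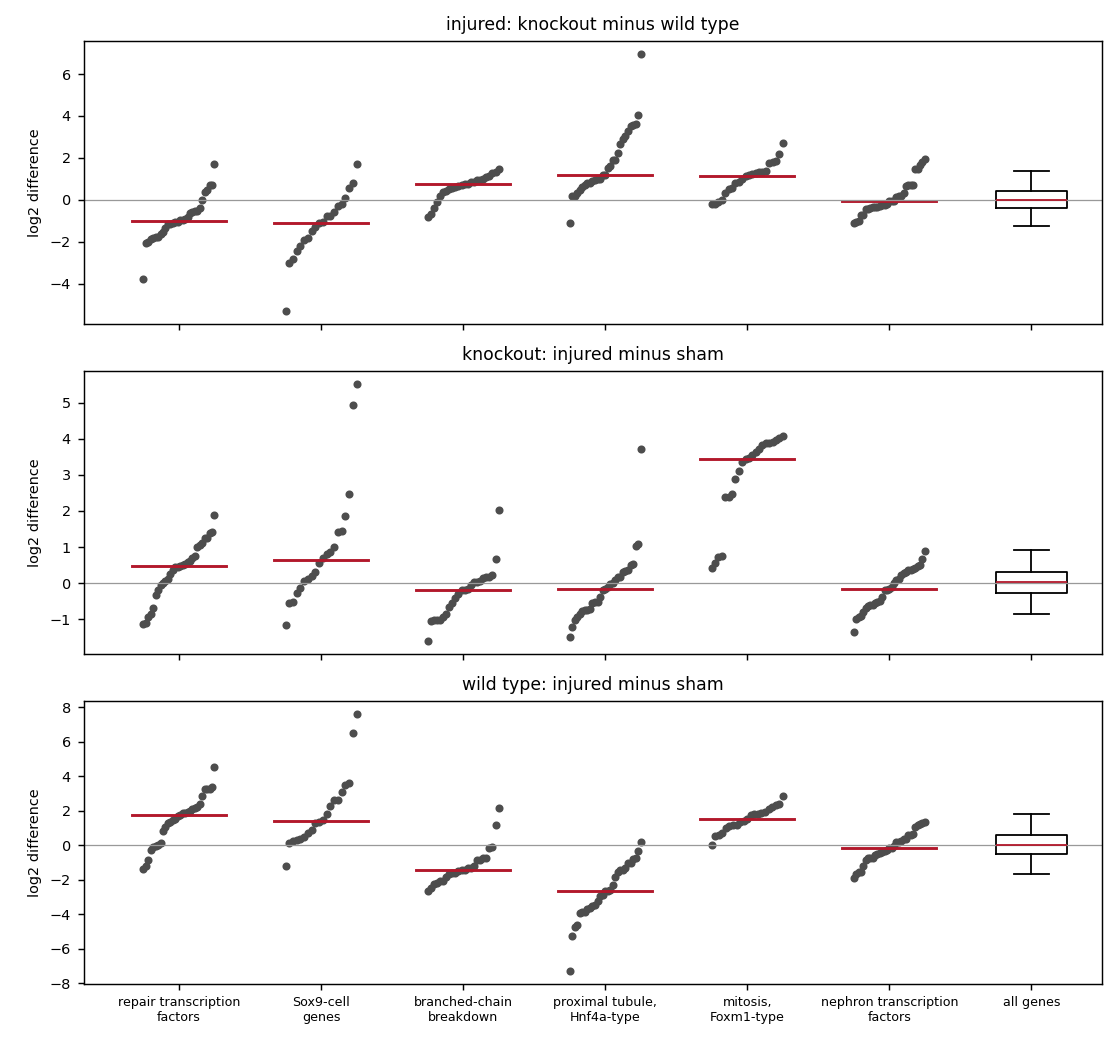
Log2 differences of the genes of 6 lists (1 point per gene above background, sorted, with a red bar at the median) and of all genes (box from quartile to quartile, whiskers at the 5th and 95th percentiles). From top to bottom the panels give knockout injured minus wild type injured, knockout injured minus sham and wild type injured minus sham. The mitosis list has medians of 1.16, 3.45 and 1.52, and the proximal tubule list 1.19, -0.17 and -2.66.

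Mitosis genes known as Foxm1 targets ran with Foxm1. Of 22 genes, 12 were at least 2-fold higher and 0 lower in knockout injured than in wild type injured, with a median of 1.16. With injury 18 of 22 were higher in knockout and 17 of 21 in wild type, with 0 lower in either and medians of 3.45 and 1.52. Ccnb2, a mitotic cyclin, was 2.71 higher in knockout injured than in wild type injured, and higher with injury by 4.04 in knockout and 0.56 in wild type. Cdc20, an activator of the anaphase-promoting complex, was 2.18 higher, with injury differences of 3.90 and 1.81. The genes most like Foxm1 in pattern were Prc1 (0.10), Aurka (0.11) and Mki67 (0.12), which encode a spindle midzone protein, a mitotic kinase and the proliferation antigen Ki-67.

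The promoters of Ccnb2 and Cdc20, the genes at the top of this list, are shown because both hold the CCAAT box and TTTGAA. The second motif has the letters of the cell cycle homology region, which is known to be read by the MuvB complexes with which Foxm1 works. In Ccnb2 this match lies farther from the start than every CCAAT box, and in Cdc20 it lies between the boxes. Whether either match is the cell cycle homology region was not tested. Each promoter is the 250 bases before the RefSeq start on the minus strand (GRCm38.p6), Ccnb2 at chr9:70421555-70421804 and Cdc20 at chr4:118437344-118437593, with both motifs in capitals.
Ccnb2 promoter: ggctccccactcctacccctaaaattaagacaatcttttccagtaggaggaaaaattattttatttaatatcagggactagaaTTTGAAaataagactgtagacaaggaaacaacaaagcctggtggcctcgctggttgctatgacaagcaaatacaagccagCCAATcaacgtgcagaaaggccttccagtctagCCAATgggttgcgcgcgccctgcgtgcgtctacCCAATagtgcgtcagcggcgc
Cdc20 promoter: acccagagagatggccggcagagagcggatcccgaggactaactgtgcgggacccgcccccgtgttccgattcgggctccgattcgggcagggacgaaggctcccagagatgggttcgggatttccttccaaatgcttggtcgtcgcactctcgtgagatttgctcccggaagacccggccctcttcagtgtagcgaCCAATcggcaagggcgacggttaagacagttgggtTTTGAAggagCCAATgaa
Ccnb2 has CCAAT 87, 54 and 21 bases before the start and TTTGAA 167 bases before it. Cdc20 has CCAAT 53 and 8 bases before the start and TTTGAA 18 bases before it, and no motif overlaps another. Promoters were matched for 17 of the list genes, 18 in all. CCAAT was in 15 of the 18 (83.3%) against 33.9% of all promoters, TTTGAA in 7 (38.9%) against 16%, and both in 6 (33.3%) against 5.55%, both strands read. Here too a match describes the letters only, and whether these sites are used was not tested.

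Cell cycle factors around Foxm1 were read from a list that mixes activators and inhibitors of the cell cycle. Its counts and median therefore do not tell whether these factors ran with Foxm1. Of 16, 0 were at least 2-fold higher and 2 were lower in knockout injured than in wild type injured, with a median of -0.45. Cdkn1a, the cell cycle inhibitor p21, was at -2.96, with injury differences of -0.96 in knockout and 3.33 in wild type. Ccne1, the G1/S cyclin E1, was at -1.72, and higher with injury by 2.45 in knockout and 3.77 in wild type. At the other end of the list were Rbl2 and Rb1, at 0.40 and 0.27 between the injured kidneys. With injury 4 of the 16 were higher and 0 lower in knockout, and 8 were higher and 1 lower in wild type.

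Other transcription factors of nephron development and tubule identity had no common direction. Of 31 above background, 5 were at least 2-fold higher and 3 lower in knockout injured than in wild type injured, with a median of -0.08. Of all genes 8.67% were higher and 7.8% lower. Tcf21 and Wt1, which act in podocytes and stroma, were 1.93 and 1.80 higher in knockout injured, and were at 0.50 and -0.64 with injury in knockout and at -1.92 and -1.58 in wild type. The 5 podocyte markers were all above background on every array, with a summed signal of 4.43 in knockout injured, 1.83 in wild type injured, 6.90 in knockout sham and 4.57 in wild type sham. Hoxb7, a factor of the collecting duct lineage, was at -1.12 between the injured kidneys. Of 18 partners or targets of Pax2, Pax8 and Lhx1 above background, 1 was higher and 2 lower in knockout injured, with a median of -0.15. With so few genes these counts do not set the partners apart from all genes. Spry1 and Etv4, which act in growth factor signalling of the ureteric bud, were at -1.10 and -1.05.

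Relatives of the 8 genes were read by family, beside shares of all genes of 8.67% higher and 7.8% lower between the injured kidneys. Of 10 Sox genes above background, 2 were at least 2-fold higher and 0 lower in knockout injured than in wild type injured: Sox18 (1.73) and Sox7 (1.49), factors of endothelium. The 6 endothelial markers were above background on every array and had a summed signal of 26.1 in knockout injured, 6.28 in wild type injured, 35.9 in knockout sham and 27.8 in wild type sham, and the part of these cells was not tested. Of 15 Klf genes 2 were higher and 3 lower between the injured kidneys, and 6 were higher and 3 lower with injury in wild type (14.4% and 12.7% of all genes). In the response difference 2 lay on the higher and 6 on the lower side (9.79% and 9.35% of all genes). Between the injured kidneys, of 4 Pax genes 0 were higher and 1 lower, of 6 Lhx genes 0 and 2, and of 15 forkhead genes 2 and 1. Pax6 was at -1.90, Lhx2 at -1.61 and Foxa1 at -3.11 between the injured kidneys. Lhx5 was not above background in knockout injured and was lower there by at least 4.04.

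The genes nearest in pattern to the remaining members lay at root mean square distances of 0.01 to 0.06. They were Serpinb1c, Cdca7 and Sphk1 for Klf6, Hs3st1 and Mipol1 after Rn18s for Sox4, and Nat10, Serpina3m and Ntmt1 for Pax2. For Pax8 they were Cdk2, Ybx3 and Klf3, for Lhx1 Arhgap25, Aplp1 and Nxph3, and those for Hnf4a included Mtrex and Unkl.

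**Figure D5:**
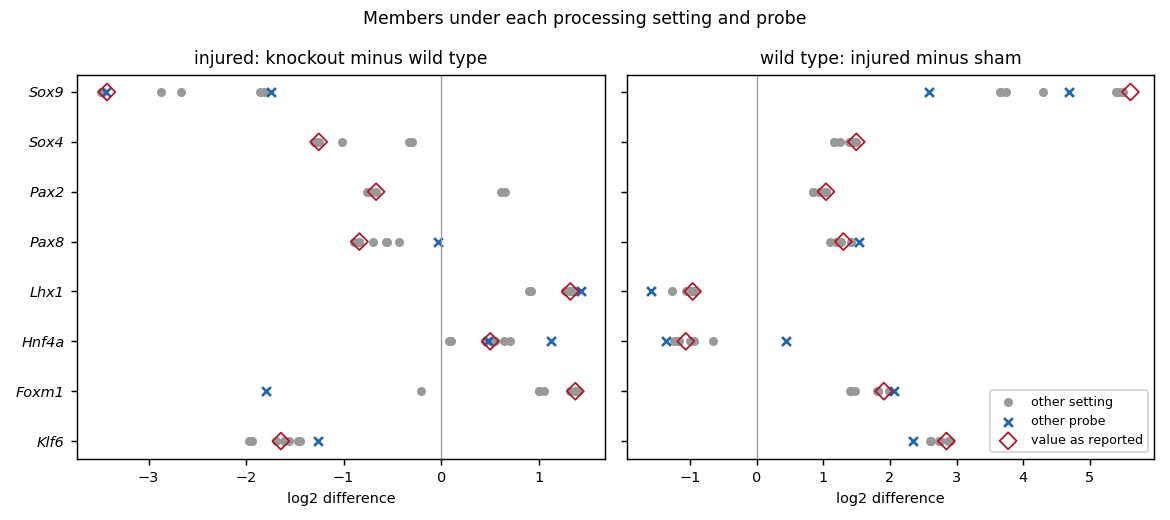
Log2 differences of the 8 genes between knockout injured and wild type injured (left) and between wild type injured and wild type sham (right), as reported (red diamonds), under each other processing setting (grey points) and for each other probe (blue crosses). Sox9, Sox4, Pax8 and Klf6 stay below 0 and Lhx1 and Hnf4a above 0 in the left panel, whereas Pax2 and Foxm1 have values on both sides.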

How the data were processed

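Spots were quantified in Agilent Feature Extraction, named as 10.7.3.1 in the deposited files and as 9.1 by the submitters' processing notes. The intensity values are background-subtracted and detrended within each array, per the file headers, and not scaled between arrays. A deposited table of log2 values by the authors, with a between-array normalization not given in the sources used here, had column medians of 5.91 to 5.93 and the rank order of the scanner intensities, and served as an alternative. No centring of its genes was seen. Coordinates of probes are mm9. Control spots and spots with outlier flags were left out, spots of a probe were averaged on the log2 scale, and probes were named by RefSeq accession or symbol (GRCm38.p6). The probe with the highest mean represented a gene. A probe was above background on an array where 0.5 or more of its spots were so flagged by the scanner software. Where 1 side of a difference was below background, its higher of own level and array floor (-5.61 to -4.74) gave a bound. Genes were counted at 2-fold where above background on either array (on all 4 for responses). Limma (version 3.58.1, R 4.3.3) fitted genes above background on at least 2 arrays, with p-values adjusted by the Benjamini-Hochberg method. It was tested on simulated data with 200 of 16609 genes changed. At a log2 change of 2 it recovered 0 of 200 changed genes for injury and 0 of 200 for genotype. At a log2 change of 4 it recovered 139 and 115 of 200, and at 6 it recovered 190 and 171. Named list genes are the 2 highest and 2 lowest differences between the injured arrays among genes measured above background on both, beside the 3 genes nearest in pattern, of which 2 are not reported here. Lhx5, Sox11 as a repair factor and the fat, urothelial, red cell, neutrophil, podocyte and endothelial markers were picked outside that rule. The members and lists were chosen with earlier results of these data known. Alternatives changed scaling, background correction, probe rule, filter, fold and arrays used.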

Additional observations from a re-analysis of the deposited data

Results flagged for a closer look

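The Hnf4a difference after injury lay on opposite sides of 0 in the genotypes by its brightest probe, at 0.12 in knockout and -1.06 in wild type, so that the response in knockout minus that in wild type was 1.18. By the same probe the knockout difference turned to -0.36 and -0.34 with the normexp fits and to -0.56 against wild type sham, the same side as wild type, and by A_51_P198473 it was -0.09. The other probes gave 1.26 and 0.19 for the response difference. The difference was not tested, since each group has 1 array, and the knockout value compares a kidney of male pattern with a sham kidney of female pattern.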

How the results depend on the processing

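No paired analysis was possible because each group has 1 array and the labels share no replicate number, and slide as a block for genotype was not run because each genotype lies on 1 slide. With normexp, with or without flagged spots in its fit, 3 of the 8 genes were 2-fold apart between the injured kidneys (Sox9, Foxm1, Klf6). Over all genes 1471 and 1339 of 16790 were. With injury in knockout 4 of the 8 were (Sox9, Sox4, Pax2, Foxm1), against 5088 and 4909 of 17087 genes. In the response difference 3 of the 8 were, against 2035 and 1962 of 14994 genes. With injury in wild type the count was 5 with quantile normalization (without Pax2 and Hnf4a), against 4370 of 16719 genes. It was 6 in the authors' table (without Pax2), against 4420 of 16719. At 4-fold the counts were 1 between the injured kidneys (634 of 16790 genes), 2 with injury in wild type (1210 of 16719) and 2 in the response difference (691 of 14994). Limma for injury called 5 of the 8 genes with either normexp fit (4438 and 4375 of all genes). In those fits limma used a common SD for all genes (0.403 and 0.398), so their p-values do not use the spread of each gene. Leaving out 1 array, which also took the other additive term out of the model, gave 0 to 2. The 2 were Sox9 and Klf6 without knockout injured (784 of all genes), where wild type injured alone was set against both sham arrays and assumed to vary like them. For genotype limma called 0 of the 8 throughout, with 97 and 101 of all genes under the normexp fits. It called 144 without wild type sham, where both knockout arrays were set against wild type injured alone, so that injury and genotype are mixed. The cause of these shifts was not tested.

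By single probes, Hnf4a with injury in wild type turned to 0.44 by A_52_P69656. Foxm1 by A_52_P361024, below background on all arrays, was at -1.80 between the injured kidneys, -0.38 with injury in knockout and -2.45 in the response difference, and the mean over its probes gave -0.21 and -0.27 for the first and the last. Of 328 values of single members under alternatives, 160 moved by less than the technical spread. The sign changed in 29, these 6 and 23 whose reported value was under 2-fold, such as Pax2 between the injured kidneys.

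Over all genes, 2-fold counts between the injured kidneys were 2765, against 1471 and 1339 with the normexp fits, 1567 with an offset of 50 (chosen after seeing the data) and 634 at 4-fold. With injury in knockout they were 1302, against 5088, 4909, 624 and 273 and 2145 with no filter. Between the sham kidneys they were 1224, against 518, 514, 521 and 172 and 2283 with no filter. For the response difference they were 2870, against 1893 with the offset, 691 at 4-fold and 5319 with no filter, and with injury in wild type 4531, against 1210 at 4-fold. Normexp moved the median of all genes between the injured kidneys to 0.21 and the higher share of calls with injury in knockout to 89.1%, against 58.1%. The higher share between the sham kidneys was 34.5% with median scaling, 43.8% with quantile normalization, 43.3% in the authors' table, 41.1% and 41.6% with the normexp fits and 42.2% with the offset, against 54.7%. Signals near the background, such as those of Pax2 and the third Sox9 probe, limit these values.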

Other observations

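Havcr1, which encodes the tubular injury marker KIM-1 and is on the list of genes known from injured cells that express Sox9, did not follow Sox9 in the sham kidneys. It read 0.59 in knockout injured, 3.42 in wild type injured, -4.95 in knockout sham and 0.35 in wild type sham, so wild type sham stood near knockout injured. Sox9 differed by 0.07 between the same sham kidneys and Havcr1 by -5.30. Krt20 differed by -2.60 between them and Lcn2 by 1.05. Havcr1 was chosen after its values were seen.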
